A study of Mus musculus with 28 samples.

Results

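The interferon response genes described here (Irf1, Irf7, Isg15, Ifit1, Ifit3, Oas1a, Bst2 and Gvin1) were followed through RNA-seq of mouse small-intestinal organoids given ligands of the transforming growth factor beta superfamily. These 8 genes were chosen by symbol, all of them had a row among the 29413 genes of the BMP table and the 55416 of the Tgfb table, and all 8 passed the filter on low values in both. Organoids are epithelial cultures grown in a gel from intestinal crypts, here of wild-type C57BL/6 mice in a medium without added BMP or Tgfb. In the BMP table, 4 control samples received no ligand, 4 received recombinant BMP2, and BMP3, BMP4, BMP5 and BMP7 were each given to 3. In the Tgfb table, 3 samples received Tgfb and 3 did not. Every ligand was used at 500 ng/ml for 24 h. A further table held Pdgfra-positive duodenal mesenchymal cells of a PdgfraH2BeGFP mouse, 1 sample fresh and 1 immortalised with the E6 gene of a papillomavirus and sorted on eGFP. The labels do not say whether replicates came from separate animals or cultures, so p-values measure only the spread between these samples.

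Interferons are secreted proteins that alert cells to infection. Type I and type III interferons act through receptor-bound kinases on transcription factors that bind the interferon-stimulated response element (ISRE) in gene promoters, whereas interferon gamma acts through the gamma-activated site (GAS). The gut epithelium is known for its use of type III interferon. Among the 8 genes, Irf1 and Irf7 encode transcription factors, Isg15 a ubiquitin-like protein, Ifit1 a binder of viral RNA and Ifit3 a related protein. Oas1a encodes a sensor of double-stranded RNA, Bst2 (tetherin) a membrane protein that holds budding virus particles, and Gvin1 a very large interferon-inducible GTPase.

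Promoter stretches are shown for the 6 genes whose RefSeq promoter window held a searched motif, because most of these genes moved together across the ligands. Windows of 300 bases, 250 before and 50 after the annotated start, were matched by symbol for 7 of the 8 genes, with Gvin1 the exception. The ISRE core was searched as GAAA, 2 bases of any kind and GAAA again, and the GAS as TTCNNNGAA, on both strands, and matches could overlap each other. Each stretch below is 100 bases on the strand of the gene, 5′ to 3′, in GRCm38.p6, with the matches in capitals. In Irf1, shown from the first of its 2 windows, the capitals mark the GAS.
Irf1 (chr11:53769878-53769977, plus strand): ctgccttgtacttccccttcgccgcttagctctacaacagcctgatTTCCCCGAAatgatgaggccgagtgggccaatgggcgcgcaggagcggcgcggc
In the other 5 genes the capitals mark the ISRE core, read on either strand.
Isg15 (chr4:156200836-156200935, minus strand): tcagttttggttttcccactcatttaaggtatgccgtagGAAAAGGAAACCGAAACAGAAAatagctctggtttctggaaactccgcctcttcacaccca
Ifit1 (chr19:34640749-34640848, plus strand): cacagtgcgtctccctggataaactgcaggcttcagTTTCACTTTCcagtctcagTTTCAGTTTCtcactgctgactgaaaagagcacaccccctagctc
Ifit3 (chr19:34583345-34583444, plus strand): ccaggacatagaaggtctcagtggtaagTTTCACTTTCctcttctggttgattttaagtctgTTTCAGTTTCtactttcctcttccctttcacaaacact
Oas1a (chr5:120907526-120907625, minus strand): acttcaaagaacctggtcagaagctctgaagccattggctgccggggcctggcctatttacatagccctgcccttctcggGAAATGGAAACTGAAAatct
Bst2 (chr8:71537545-71537644, minus strand): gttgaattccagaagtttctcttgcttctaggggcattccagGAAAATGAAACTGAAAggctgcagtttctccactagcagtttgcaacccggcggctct

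The ISRE core was found in 5 of the 7 genes with a window, which hold 8 windows between them, against 3.99% of all 27025 genes with a window (3.44% of 32851 windows). Isg15 held 3 overlapping matches, while Ifit1, Ifit3, Oas1a and Bst2 held 2 each. Those of Oas1a and Bst2 also overlapped within the gene. The GAS was found in Irf1, Oas1a and Bst2, against 9.55% of all genes with a window (8.3% of windows), and in Bst2 it shared bases with an ISRE core. Irf7 held neither motif in its window. A match describes letters only and says nothing about binding in these organoids.

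The BMP table gives gene counts divided by a size factor per sample, called normalized counts here, and between 21357863 and 24784527 reads per sample could be recovered from it. The Tgfb and mesenchymal tables give TPM, a level per transcript length scaled to 1 total in every sample, which keeps no depth. All 7 epithelial markers searched were present in every organoid group, and their summed normalized counts went from 117340 to 132290 in control samples up to 668220 to 855640 under BMP2. The sum of 5 crypt stem cell markers went from 131773 to 158815 in control samples down to 8678 to 19235 under BMP2 and 4699 to 5764 under BMP4. In the same order, 8 enterocyte markers summed to 48398 to 92332, 32243 to 80440 and 358980 to 446360. Goblet cell markers summed to 21940 to 38010, 28012 to 62580 and 77300 to 132500, and tuft cell markers to 363 to 430, 1475 to 2314 and 774 to 781. Sums of Paneth and enteroendocrine markers overlapped the control range under BMP2 and BMP4. The summed normalized counts of 11 leukocyte markers were 29.9 to 47.1 in control samples and 45.5 to 135 under BMP2, where Csf1r, a macrophage receptor, stood at 13.9 to 55.6 against 3.3 to 6.21 in control samples. With BMP4 the leukocyte sum was 37.1 to 68.7, with BMP5 54.7 to 68.1 and with BMP7 36.5 to 53.5. The 5 mesenchymal markers with a row summed to at most 39.9 in control samples and to 33.3 to 55.4 under BMP2. The part of other cell types and of the epithelial make-up in the results was not tested, and in bulk samples fewer cells of a type and less RNA per cell cannot be told apart.

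Most of the 8 genes rose under every ligand except BMP3, and each of the 7 that rose had its largest increase under BMP2. Changes are differences of log2(normalized count + 1) tested with limma over all genes of the table, called at an adjusted p under 0.05. BMP2 raised 7 of 8 and lowered Gvin1, in a comparison that called 75.1% of all genes (36.8% higher and 38.4% lower). BMP4 raised 6 and lowered none, with 65.1% of all genes called (33.7% higher). BMP5 raised 7 and lowered none, with 26.3% of all genes called (16.5% higher). BMP7 raised 6 and lowered Gvin1, with 32.4% of all genes called (19.2% higher and 13.2% lower). None of them was called under BMP3, where 0% of all genes were called.

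The median change of the 8 genes was 3.21 under BMP2, 2.26 under BMP4, 1.37 under BMP5 and 1.34 under BMP7 on the log2 scale, while the median of all genes tested lay between -0.05 and 0.04. These comparisons share the same 4 control samples. Scaling every sample to the same total moved the median of all genes to -0.48 for BMP2, -0.35 for BMP4, -0.07 for BMP5 and -0.12 for BMP7. The share of called genes that were higher then went from 48.9% to 31.8% for BMP2, from 51.7% to 31.1% for BMP4 and from 59.4% to 48.7% for BMP7. Quantile normalization moved that share from 62.5% to 49.8% for BMP5 and to 48% for BMP7.

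**Figure D1:**
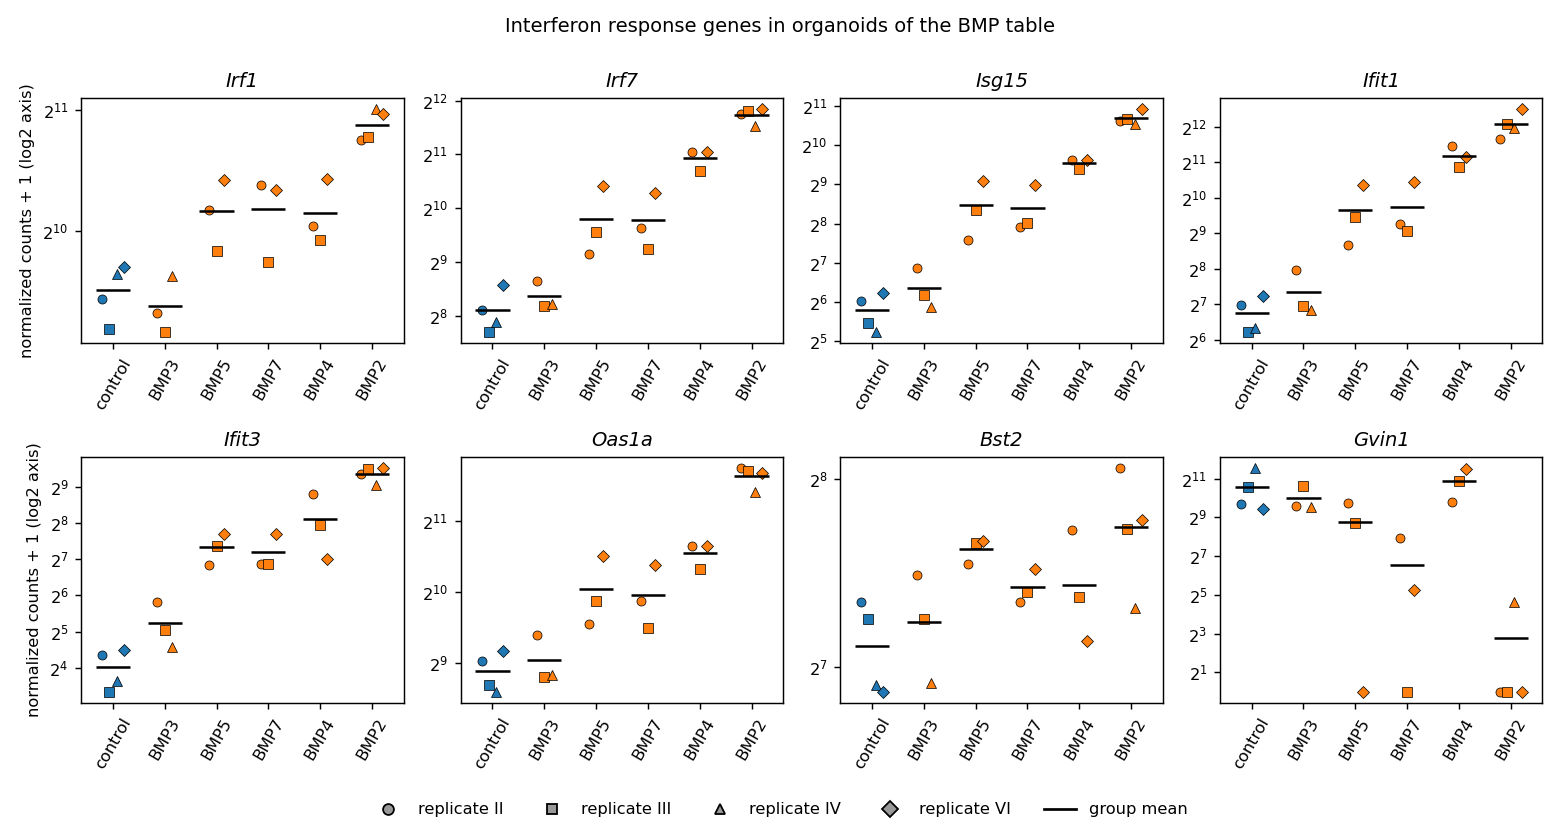
Normalized counts + 1 of the 8 genes (y axis, log2) in each of the 20 samples of the BMP table, by group (x axis), with the replicate number as the symbol and the group mean as a bar. Irf7, Isg15 and Ifit1 step up from control and BMP3 through BMP5 and BMP7 to BMP4 and BMP2, while Gvin1 is at 0 in 3 of the 4 BMP2 samples.

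Irf1 (ENSMUSG00000018899), a transcription factor of the interferon gamma response, rose by a smaller factor than most of the others. It stood at 693, 582, 801 and 833 normalized counts in the 4 control samples and at 1720, 1750, 2060 and 2000 under BMP2. No BMP2 sample overlapped a control sample, and the log2 change was 1.38 (SE 0.165, limma adjusted p = 3.98e-07). The 3 samples read 1050, 971 and 1380 with BMP4, 1150, 912 and 1370 with BMP5, and 1330, 856 and 1290 with BMP7. Each of these 9 samples was above every control sample, and the log2 changes were close to each other at 0.64, 0.65 and 0.66 (SE 0.178 each). The BMP4 change was 0.24 and lost its call when every sample was scaled to the same total (adjusted p = 0.224 with limma, and 5.9e-06 to 0.224 over all its alternatives). For BMP5 and BMP7 the call was lost without their sample VI, at limma adjusted p = 0.086 and 0.0506, and for BMP7 also without its sample II, at 0.058. The lowest adjusted p over the alternatives was 2.85e-05 for BMP5 and 1.78e-05 for BMP7.

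Irf7 (ENSMUSG00000025498), the master regulator of type I interferon production, changed much more. Its control values were 276, 207, 237 and 380 normalized counts, and its BMP2 values were 3450, 3560, 2940 and 3680. With BMP4 it read 2110, 1660 and 2110, with BMP5 565, 749 and 1360, and with BMP7 796, 605 and 1240. The groups stood in 3 tiers above control, and every sample of these 4 ligands was above every control sample. The log2 changes were 3.66 for BMP2 (SE 0.245, limma adjusted p = 1.34e-10), 2.86 for BMP4 (SE 0.265), 1.63 for BMP5 and 1.65 for BMP7 (SE 0.265 each). On the linear scale the group means were 12.4, 7.13, 3.24 and 3.2 times the control mean.

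Isg15 (ENSMUSG00000035692), whose product is attached to other proteins after interferon signalling, was low without ligand. The control samples held 63.9, 43.1, 36.4 and 74.3 normalized counts and the BMP2 samples 1570, 1630, 1500 and 1950, a mean 30.5 times higher. With BMP4 it held 781, 673 and 781, with BMP5 189, 323 and 543, and with BMP7 240, 256 and 504. No sample of these 4 ligands came down to the control range. The log2 changes were 4.96 (SE 0.302), 3.80, 2.60 and 2.56 (SE 0.326 each), with the largest limma adjusted p of the 4 at 1.18e-05 for BMP5.

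Ifit1 (ENSMUSG00000034459) and Ifit3 (ENSMUSG00000074896) had the largest increases of the 8 genes under BMP2. Ifit1 stood at 124, 73, 79.8 and 149 normalized counts in control samples and at 3210, 4320, 4010 and 5800 under BMP2. It read 2800, 1860 and 2260 with BMP4, 405, 699 and 1320 with BMP5, and 613, 534 and 1390 with BMP7. The lowest treated sample was thus well above the highest control sample, and the BMP5 and BMP7 samples spread about as widely as each other. The log2 changes were 5.36 (SE 0.36), 4.47, 2.81 and 2.90 (SE 0.389 each), the largest limma adjusted p being 3.24e-05.

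Ifit3 was barely present without ligand, at 19.5, 9.13, 11.5 and 21.5 normalized counts, and reached 646, 721, 528 and 724 under BMP2. The BMP4 samples were uneven, at 447, 244 and 128. With BMP5 it read 114, 162 and 205, and with BMP7 115, 116 and 205. So the BMP4 samples reached into the BMP5 and BMP7 range for this gene, which they did not for Irf7, Isg15 or Ifit1. The log2 changes were 5.39 for BMP2 (SE 0.355), 3.96 for BMP4, 3.34 for BMP5 and 3.18 for BMP7 (SE 0.384 each), all with a limma adjusted p of 5.29e-06 or less.

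Ifit1 and Ifit3 have close copies, Ifit1bl1 and Ifit3b, and the counting could have split reads between them, so single values are uncertain. Summed over each pair, the levels under BMP2, BMP4, BMP5 and BMP7 again lay above control. Ifit3 with Ifit3b averaged 22.7 ± 8.41 normalized counts (SD, n = 4) in control samples, 1349 ± 278 under BMP2 (n = 4), 420 ± 205 under BMP4, 314 ± 138 under BMP5 and 265 ± 118 under BMP7 (n = 3 each). Ifit1 with Ifit1bl1 averaged 333 ± 109 in control samples and 17235 ± 4696 under BMP2. Their lowest sums under BMP4, BMP5 and BMP7 were 4410, 1264 and 1623, all above the highest control sum of 435.

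Oas1a (ENSMUSG00000052776), which makes the signal that turns on an RNA-degrading enzyme, was already well expressed in control samples, at 520, 412, 386 and 576 normalized counts. It rose to 3400, 3310, 2690 and 3260 under BMP2 and to 1600, 1280 and 1590 under BMP4. With BMP5 it read 750, 938 and 1450, and with BMP7 936, 719 and 1330. All of these were above the control range. The log2 changes were 2.75 (SE 0.206), 1.66, 1.11 and 1.04 (SE 0.223 each), with limma adjusted p up to 0.00142. Oas1g is a close copy, and the sum of both averaged 678 ± 119 normalized counts (SD, n = 4) in control samples and 4140 ± 373 (n = 4) under BMP2.

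Bst2 (ENSMUSG00000046718) changed least. Its control values were 162, 152, 119 and 116 normalized counts and its BMP2 values 265, 212, 158 and 219, so the lowest BMP2 sample fell within the control range. The log2 change under BMP2 was 0.63 (SE 0.171, limma adjusted p = 0.00281), and it was 0.17 when every sample was scaled to the same total (adjusted p = 0.361, and 2.72e-05 to 0.361 over all alternatives). Under BMP5 it read 186, 201 and 203, above every control sample, with a change of 0.53 (SE 0.184, limma adjusted p = 0.0407) that lost its call in 7 of 18 alternative analyses (adjusted p up to 0.242), among them leaving out control sample IV or VI or any BMP5 sample. The BMP4 samples (211, 165 and 140) and BMP7 samples (162, 168 and 183) were not distinguished from control samples, at 0.32 and 0.33 (adjusted p = 0.139 and 0.183). Under BMP4 the sign turned to -0.08 with equal totals, and with quantile normalization the change was 0.60 and passed (limma adjusted p = 0.00797).

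**Figure D2:**
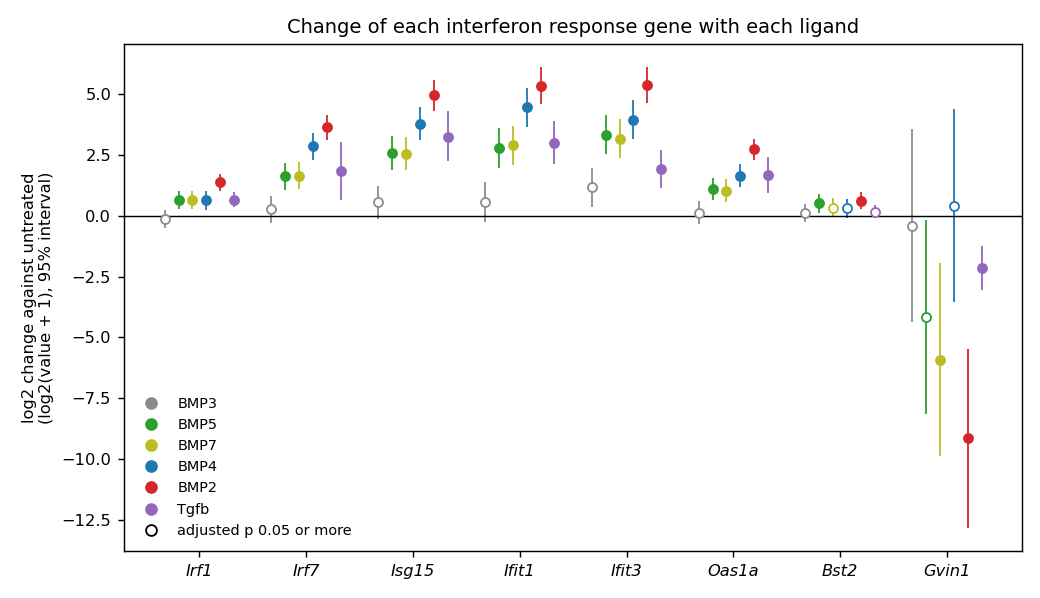
Log2 change against untreated samples (y axis, on log2(value + 1), 95% interval as a line) of each of the 8 genes (x axis) for each ligand, filled where the limma adjusted p is under 0.05. BMP2 lies highest for every gene except Gvin1, which fell by 9.16, and no BMP3 point is filled. The Tgfb points come from a separate table in TPM and are set beside the others without a test.

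BMP3 is the ligand under which the 8 genes stayed nearest to control. None was called with limma, in a comparison where 0% of all genes were called and 110 of 14746 (0.746%) had an unadjusted p under 0.05. That share is below the threshold of 0.05 itself, so the fit was strict in this comparison. The lack of calls does not show that BMP3 had no effect. edgeR and DESeq2 on the recovered reads also called none of the 8, and over all genes they called 0 and 1. Ifit3 was the only one of the 8 with an unadjusted p under 0.05, at 55.1, 32.1 and 22.8 normalized counts with BMP3, all above the highest control sample. Its change was 1.19 (95% interval 0.38 to 1.99, limma adjusted p = 1). Its sum with Ifit3b was 51.4 ± 31.1 normalized counts under BMP3 (SD, n = 3), and the lowest of these, 30.7, was just above the highest control sum of 30.6. The changes of Irf7 (0.28), Isg15 (0.57), Ifit1 (0.57) and Oas1a (0.14) had 95% intervals reaching up to 0.84, 1.25, 1.38 and 0.61.

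Replicates differed in the same way for several genes. Sample VI held the highest value of 7 of the 8 genes under BMP5, of 6 under BMP7 of 6 among the control samples, of 4 under BMP2 and of 2 under BMP4. Against the control sample of its own number, Irf7 was 2.05 to 3.62 times higher under BMP5 and 2.88 to 3.26 times higher under BMP7. For Isg15 these ratios were 2.96 to 7.49 under BMP5 and 3.76 to 6.78 under BMP7. Irf7, Isg15, Ifit1, Ifit3 and Oas1a were higher in every same-numbered pair for BMP2, BMP4, BMP5 and BMP7. The same 5 genes were also above the same-numbered control in all 3 BMP3 pairs, by less: 1.25 to 1.45 times for Irf7, 1.59 to 1.8 for Isg15, 1.43 to 1.99 for Ifit1, 1.98 to 3.52 for Ifit3 and 1.08 to 1.29 for Oas1a. None of these BMP3 changes was called with limma, with or without the replicate number as a block. The share of all genes above their same-numbered control in every pair is not given here. These 5 genes also followed each other across samples, so they do not count as separate observations. With every sample numbered VI left out, a choice made after these values were seen, the 5 genes were still called higher under these 4 ligands.

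Gvin1 (ENSMUSG00000045868) went the other way. The control samples held 839, 1540, 2950 and 685 normalized counts, whereas 3 BMP2 samples were at 0 and the fourth, sample IV, at 23.5, which is 20 reads. BMP7 samples held 240, 0 and 37.5, all below control, and BMP5 samples 861, 418 and 0, of which the first lay inside the control range. BMP4 samples, at 882, 1910 and 2870, were in the control range, as were the BMP3 samples at 777, 1580 and 731. The fall was called for BMP2 (log2 change -9.16, SE 1.75, limma adjusted p = 0.000112) and BMP7 (-5.92, SE 1.89, limma adjusted p = 0.0226), but not for BMP5 (-4.16, limma adjusted p = 0.117), where leaving out BMP5 sample II gave -5.96 and a call (limma adjusted p = 0.0331). With samples at 0 the size of these changes depends on the pseudocount. The group means under BMP2 and BMP7 were 0.00391 and 0.0615 of the control mean. The BMP7 call was lost in 4 of 18 alternative analyses, with a limma adjusted p of 0.146 without its sample III and 0.0537 without control sample IV.

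Gvin1 has near-identical copies, so its own level is uncertain, and the sum over its family is given as well. That sum describes the family and not Gvin1 alone. The 11 Gvin loci of the table summed to 27614 ± 5449 normalized counts (SD, n = 4) in control samples, of which Gvin1 made up 2.94% to 8.8%. Under BMP2 the sum was 436 ± 227 (n = 4), under BMP5 7104 ± 4162 and under BMP7 8077 ± 3217 (n = 3 each), and none of these samples reached the lowest control sum of 20316. Under BMP3 it was 28485 ± 719 and under BMP4 30527 ± 1427 (n = 3 each), within the control range. Most of the family signal came from loci annotated as pseudogenes, Gvin-ps1 (13260 ± 2467 for the larger of its 2 entries) and Gvin-ps3 (11008 ± 2469) in control samples. One locus behaved differently: Gvin-ps5 held 75.5 to 153 normalized counts in control samples and 4180 to 6090 under BMP4, a log2 change of 5.40 (SE 0.561, limma adjusted p = 1.32e-07). The level of this single locus is uncertain in the same way as that of Gvin1. A shift of reads between copies was not tested.

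**Figure D3:**
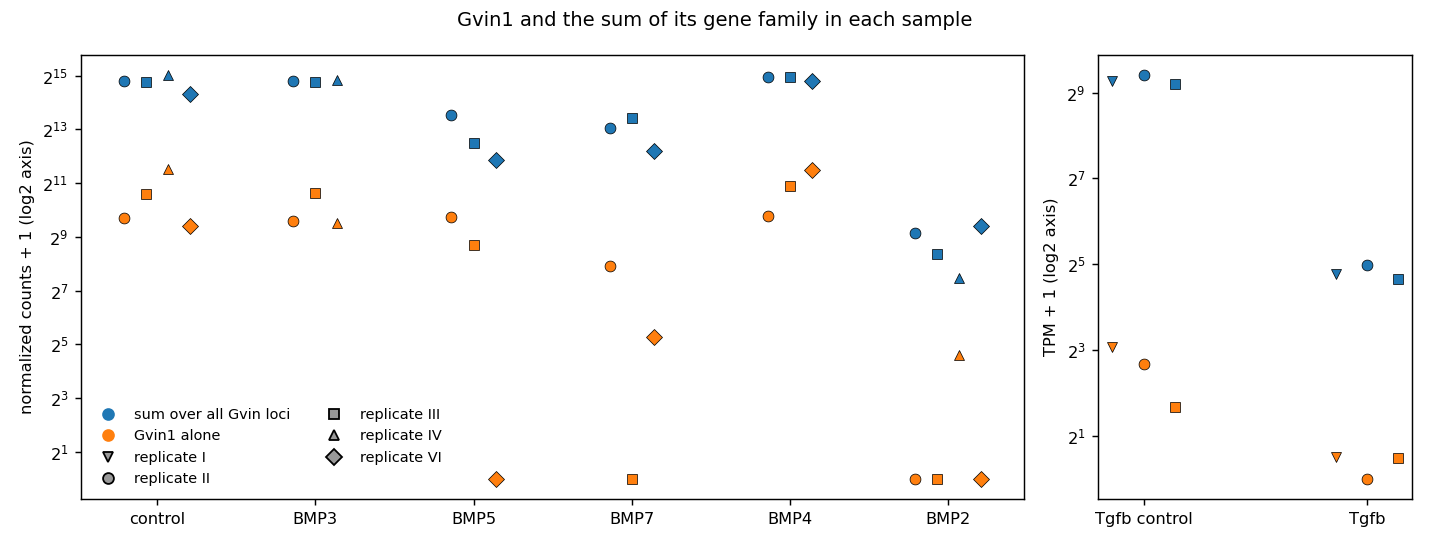
Gvin1 alone (orange) and the sum over all 11 Gvin loci (blue) in each sample (symbols give the replicate number), as normalized counts + 1 in the BMP table (left, log2 axis) and TPM + 1 in the Tgfb table (right, log2 axis). The family sum is 175 to 678 under BMP2 against 20316 to 33510 in control samples, and 24.2 to 30.4 TPM under Tgfb against 589 to 682 TPM.

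BMP2 and BMP4 are close relatives, and at the same dose and time BMP2 gave the higher level of most of these genes. BMP2 against BMP4 called 6 of 8 higher and Gvin1 lower, with 66.8% of all genes called (33.4% in each direction). The differences were 0.74 for Irf1 (SE 0.178), 0.80 for Irf7 (SE 0.265), 1.15 for Isg15 (SE 0.326), 1.43 for Ifit3 (SE 0.384) and 1.09 for Oas1a (SE 0.223), with limma adjusted p between 0.000288 and 0.0124. Ifit1 differed by 0.90 at the edge of the threshold (limma adjusted p = 0.0496). It lost its call in 11 of 18 alternative analyses (adjusted p up to 0.156), among them leaving out BMP2 sample III, IV or VI or any BMP4 sample. Summed with its copy Ifit1bl1, Ifit1 held 17235 ± 4696 normalized counts under BMP2 (SD, n = 4) and 4900 ± 573 under BMP4 (n = 3). The lowest BMP2 sum was 11110 and the highest BMP4 sum 5530, and the sums were not tested. Irf7 lost its call without BMP4 sample III (0.69, limma adjusted p = 0.0587). Bst2 differed by 0.31, with a 95% interval from -0.08 to 0.69, and was not called, though it was without BMP2 sample IV (0.44, limma adjusted p = 0.0382).

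BMP2 exceeded BMP7 for the same number of genes. It called 6 of 8 higher and none lower, with 62.8% of all genes called (31.4% higher), and the differences were 2.01 for Irf7, 2.39 for Isg15, 2.46 for Ifit1, 2.21 for Ifit3 and 1.71 for Oas1a (limma adjusted p between 2.58e-06 and 6.64e-05). Irf1 differed by 0.72 (limma adjusted p = 0.00174), but by 0.33 with equal totals, where it was no longer called (adjusted p = 0.0927). Equal totals moved the median of all genes in this comparison from 0.04 to -0.35 and the share of called genes that were higher from 50.1% to 26.7%. Bst2 (0.30) and Gvin1 (-3.24) were not called, and the sign of Bst2 turned to -0.09 with equal totals. Bst2 was called without BMP2 sample IV (0.43, limma adjusted p = 0.0458) and with quantile normalization (0.69, limma adjusted p = 0.00325). Gvin1 was called without BMP7 sample III (-5.44, limma adjusted p = 0.0216).

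BMP4 exceeded BMP7 for 5 of the 8 genes and was lower for none, with 59.8% of all genes called (28.4% higher). Irf7 differed by 1.21, Isg15 by 1.24 and Ifit1 by 1.56 (limma adjusted p = 0.0012, 0.005 and 0.00332), and Gvin1 by 6.33 (limma adjusted p = 0.0115). Oas1a differed by 0.62 with overlapping groups (limma adjusted p = 0.0316) and lost its call in 7 of 17 alternative analyses (adjusted p up to 0.252), among them leaving out BMP4 sample II or VI or BMP7 sample II or III. Ifit3 (0.78) was not called, though it was without BMP4 sample VI (1.23, limma adjusted p = 0.0144), and Irf1 differed by -0.02 with a 95% interval from -0.42 to 0.38. Without BMP7 sample III, 3 of the 8 genes were called in place of 5, Gvin1 (limma adjusted p = 0.0891) and Oas1a (0.174) being lost. With equal totals the share of called genes that were higher went from 47.5% to 28.7%, around a median of -0.32.

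BMP5 and BMP7 belong to the same subgroup of BMPs, and their levels of these genes lay close together. None of the 8 was called with limma, where 0.0136% of all genes were called (0.00678% in each direction). None had an unadjusted limma p under 0.05 either, against 347 of all 14746 genes (2.35%), so this count sets the 8 apart little. With edgeR and DESeq2 on the recovered reads none of the 8 was called. The 95% intervals of the difference ran from -0.61 to 0.58 for Irf7, from -0.70 to 0.77 for Isg15, from -0.97 to 0.78 for Ifit1 and from -0.44 to 0.56 for Oas1a. Differences inside these intervals could not be told from 0 with 3 samples each.

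Of 8 interferon genes searched, Ifne had a row in the BMP table and reached at most 2.53 normalized counts, in a BMP2 sample, while the other 7 are not analysed here. In the Tgfb table all 8 were listed at 0 TPM in all 6 samples. Under BMP2, where 36.8% of all genes were called higher, all 6 receptor genes rose, led by Ifnlr1, the specific chain of the type III interferon receptor, which went from 268 ± 10 (SD, n = 4) to 1498 ± 257 normalized counts (n = 4), a log2 change of 2.46 (SE 0.155, limma adjusted p = 5.85e-11). Ifngr2 of the interferon gamma receptor rose by 1.48 and Ifnar1 of the type I receptor by 1.07.

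Under BMP4 4 receptor genes rose and Ifnar2, the other type I receptor chain, fell (-1.05, limma adjusted p = 2.31e-05). Under BMP5 5 of them rose and under BMP7 3, and Ifnlr1 was among them in both (0.87 and 0.86). The 6 genes of receptor signalling, among them the kinase gene Jak2 and the transcription factor gene Irf9, all rose under BMP2 and under BMP4, with a median of 1.94 and 1.45. Irf9 rose by 2.12 under BMP2 and 1.57 under BMP4, and Jak2 by 1.82 and 1.33. The smallest of the BMP4 changes was that of Jak1 (0.20, limma adjusted p = 0.0352). Scaling to equal totals moved the median of all genes under BMP4 from 0.04 to -0.35. The changes of the receptor signalling genes with that scaling are not given here, so the direction of so small a change is uncertain. Under BMP5 3 of the 6 rose and under BMP7 4. The shares of all genes called higher were 36.8% under BMP2, 33.7% under BMP4, 16.5% under BMP5 and 19.2% under BMP7. Under BMP4 31.4% of all genes were called lower.

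The 4 genes that attach Isg15 to proteins or remove it, Uba7, Ube2l6, Herc6 and Usp18, rose under BMP2, BMP4, BMP5 and BMP7. Their median changes were 2.92, 2.48, 1.55 and 1.46, where 36.8%, 33.7%, 16.5% and 19.2% of all genes were called higher. Usp18, which removes Isg15 and also damps the type I receptor, went from 20.7 ± 9.1 (SD, n = 4) to 849 ± 100 normalized counts (n = 4) under BMP2, a log2 change of 5.37 (SE 0.349, limma adjusted p = 8.85e-11). It rose by 3.60 under BMP4, 3.01 under BMP5 and 2.79 under BMP7.

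Among 33 other antiviral effectors tested, 29 rose and 3 fell under BMP2, 28 rose and 2 fell under BMP4, 26 rose and 1 fell under BMP5, and 25 rose and 2 fell under BMP7. Over all genes the shares called higher were 36.8%, 33.7%, 16.5% and 19.2%, and those called lower 38.4%, 31.4%, 9.87% and 13.2%. The effectors' median changes were 2.69, 1.89, 1.30 and 1.22. The largest increases under BMP2 were those of Ifit3b (6.43) and Ifit1bl1 (5.84), the copies of Ifit3 and Ifit1. The 3 that fell under BMP2 were Ifitm3 (-5.30), Ifitm2 (-3.01) and Samhd1 (-1.25). The Ifitm genes encode membrane proteins that block virus entry and Samhd1 an enzyme that depletes nucleotides. Ifitm3 stood at 1902 ± 202 normalized counts (SD, n = 4) in control samples, 54.1 ± 26.9 under BMP2 (n = 4) and 70.6 ± 26.4 under BMP4 (n = 3). It also fell under BMP7 (-1.68, limma adjusted p = 0.00184). Ifitm2 fell under BMP4 too (-1.82), and Samhd1 under BMP5 (-0.67) and BMP7 (-0.65).

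Of 9 nucleic acid sensing genes tested, 6 rose under BMP2, 7 under BMP4 and 6 under BMP5 and under BMP7, where 36.8%, 33.7%, 16.5% and 19.2% of all genes were called higher. Zbp1, a sensor of Z-form nucleic acid, rose by 4.40 under BMP2, 2.78 under BMP4, 3.19 under BMP5 and 2.93 under BMP7. The sensor of cytosolic DNA, Cgas, fell by 4.22 under BMP2 and by 3.00 under BMP4 (limma adjusted p = 2.66e-12 and 2.48e-09). It also fell under BMP7 (-0.79), and Mavs, the adaptor of the RNA sensors, fell under BMP2 (-0.97), BMP5 (-0.72) and BMP7 (-0.62) but rose under BMP4 (0.96, limma adjusted p = 0.000317). The partner of Cgas, Sting1, fell under BMP4 (-2.20) and rose under BMP5 (0.85) and BMP7 (0.75).

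Among the other interferon regulatory factors, Irf8, known from myeloid cells, fell under BMP2 (-3.42), BMP5 (-1.18) and BMP7 (-1.16), and its change under BMP4 was -0.10 (limma adjusted p = 0.659). The gene of this list that fell under BMP4 was Irf5 (-1.36). Of the 4 negative regulators, Socs1, an inhibitor of JAK kinases, rose under BMP2 (1.90), BMP4 (1.22) and BMP5 (1.20), and its change under BMP7 was 0.87 (limma adjusted p = 0.116). Socs3, a related inhibitor, rose under BMP2 (1.12) and BMP4 (0.96). Under BMP2 Pias1 rose (0.19, limma adjusted p = 0.035) and the phosphatase gene Ptpn2 fell (-0.38, limma adjusted p = 0.00902), both with overlapping groups. Equal totals moved the median of all genes under BMP2 from -0.03 to -0.48. The changes of Pias1 and Ptpn2 with that scaling are not given here. Over all genes 36.8% were called higher under BMP2, 33.7% under BMP4, 16.5% under BMP5 and 19.2% under BMP7. The shares called lower were 38.4%, 31.4%, 9.87% and 13.2%.

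Of 13 interferon-inducible GTPase genes tested, a list that includes Gvin loci other than Gvin1, 8 rose under each of BMP2, BMP4, BMP5 and BMP7. In that order 36.8%, 33.7%, 16.5% and 19.2% of all genes were called higher, and 38.4%, 31.4%, 9.87% and 13.2% lower. The 4 that fell under BMP2 were both entries of Gvin-ps1 together with Gvin-ps3 and Gvin-ps5, and the 3 that fell under BMP5 and under BMP7 were both entries of Gvin-ps1 and Gvin-ps3. Gvin-ps5 is counted among those that rose under BMP4 and BMP7 (1.52). Gbp2 and Gbp3, guanylate-binding proteins, rose by 5.09 and 4.88 under BMP2, by 1.93 and 1.90 under BMP4, by 3.03 and 3.09 under BMP5 and by 2.81 and 3.00 under BMP7. Of 8 interferon gamma target genes tested, 6 rose and 2 fell under BMP2. Nlrc5, the activator of MHC class I genes, rose by 4.38 and the chemokines Cxcl9 and Cxcl10 by 4.18 and 3.60, while the immunoproteasome genes Psmb9 (-0.83) and Psmb10 (-0.50) fell.

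Several other genes separated BMP2 from BMP4 by more than any of the 8 except Gvin1, and these were picked after their values were seen. Isg20, an RNA-degrading enzyme, held 502 ± 77.2 normalized counts under BMP2 (SD, n = 4) but 60.3 ± 10.5 under BMP4 (n = 3), against 51.7 ± 8.01 (n = 4) in control samples, and BMP2 exceeded BMP4 by 3.03 (SE 0.26, limma adjusted p = 7.21e-09). Cxcl9 held 97.8 ± 58.8 and 6.66 ± 4.83, a difference of 3.71 (limma adjusted p = 8.94e-06). The GTPase gene Irgm1 held 1938 ± 294 and 470 ± 136, a difference of 2.07 (limma adjusted p = 3.04e-08). Under BMP5 Isg20 and Cxcl9 rose against control by 1.30 and 1.58.

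**Figure D4:**
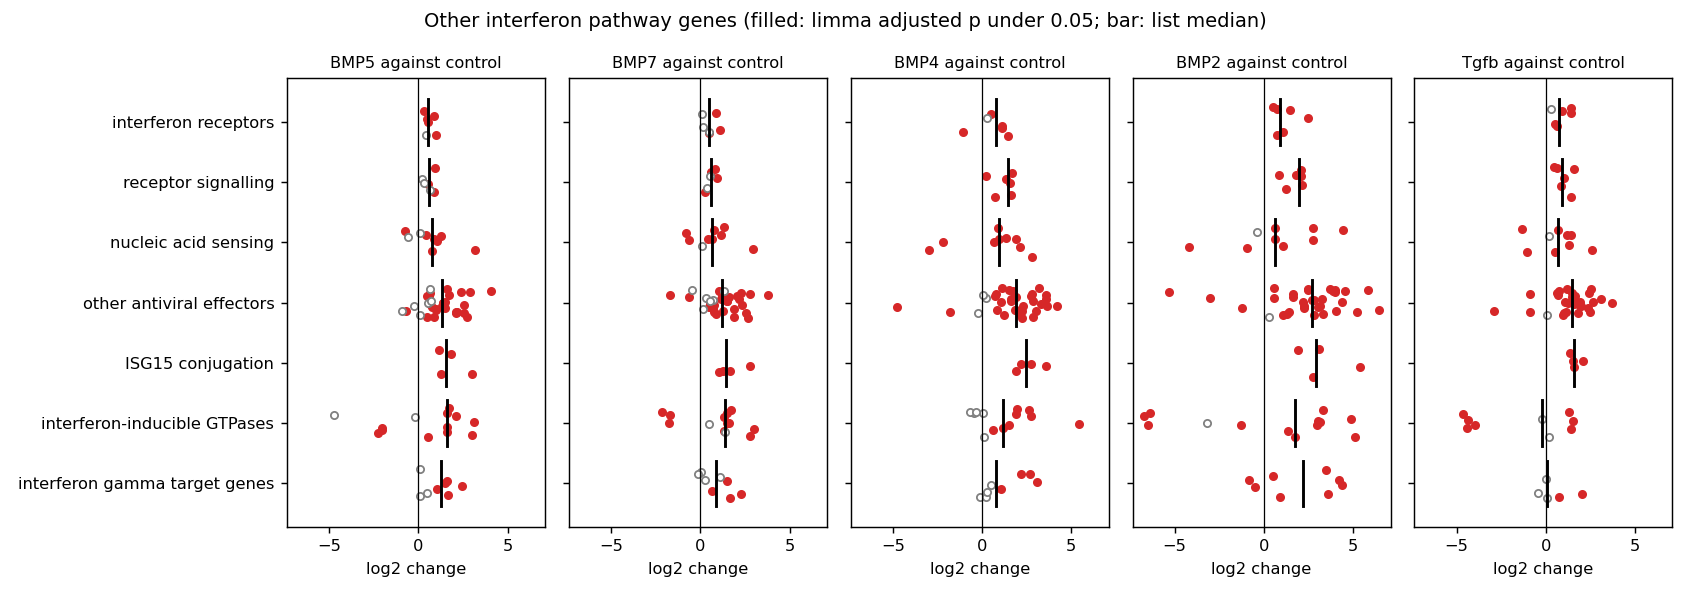
Log2 change against untreated samples (x axis) of the genes tested in 7 interferon pathway lists (rows) under BMP5, BMP7, BMP4, BMP2 and Tgfb (panels), filled where the limma adjusted p is under 0.05, with the list median as a bar. All 4 genes of ISG15 conjugation are to the right of 0 in each panel, and the Gvin loci and Ifitm3 lie far to the left under BMP2. Other regulatory factors, negative regulators and BMP3 are not drawn.

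Over all 88 pathway genes tested in the BMP table, 72 rose and 13 fell under BMP2, 65 and 6 under BMP4, 59 and 6 under BMP5, and 55 and 8 under BMP7. As shares of all genes, those called higher and lower were 36.8% and 38.4% under BMP2, 33.7% and 31.4% under BMP4, 16.5% and 9.87% under BMP5, and 19.2% and 13.2% under BMP7. The pathway genes' medians were 1.92, 1.27, 0.85 and 0.87. Under BMP3 none of them was called with limma (median 0.11).

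Across the 20 samples of the BMP table the 6 genes other than Bst2 and Gvin1 followed each other, with Pearson r of log2 values between 0.847 and 0.996 over 15 pairs. Bst2 followed them less (0.512 to 0.77), and Gvin1 ran opposite to all 7 others (-0.671 to -0.597). These correlations describe 20 samples that share 6 groups and carry no p. Among all genes tested, those most like Irf7 included Parp9 (0.993) and Dhx58 (0.992). Those most like Isg15 were Ifit1 (0.996), Irf7 and Dhx58 (0.991 each), and Ifit1 was followed by Isg15 (0.996), Irgm2 (0.994) and Dhx58 (0.991).

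For Ifit3 the nearest were Rsad2 (0.983), Cmpk2 (0.979) and Rtp4 (0.977). For Irf1 they were Dse (0.970), Kcnk6 (0.969) and Mindy1 (0.965), none of which is in the interferon lists used here. For Oas1a they were H2-D1 (0.987), Dusp5 (0.986) and Ric8a (0.986). For Bst2 they were Hsh2d (0.883), Cidea (0.869) and Ppp2r3d (0.863), and for Gvin1 Rbp7 (0.890), Crym (0.861) and Coprs (0.859).

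Tgfb, tested within its own table, also raised most of these genes. It raised 6 of 8 and lowered Gvin1, with 56.7% of all 12959 genes called (27.4% higher and 29.3% lower), and the median change was 1.77 against -0.04 for all genes. Isg15 went from 1.02, 1.6 and 3.84 TPM to 23.7, 19.1 and 45.2 TPM, a change of 3.27 on the log2(TPM + 1) scale (SE 0.421, limma adjusted p = 0.000875). Ifit1 went from 0.701, 0.568 and 1.66 TPM to 12.4, 9.87 and 24.9 TPM (3.02, SE 0.366, limma adjusted p = 0.00068), and its mean rose 16.1 times, since the added 1 shrinks changes of low genes. The groups did not overlap for either gene.

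Ifit3 rose from 0.0772, 0.163 and 0.448 TPM to 2.86, 2.61 and 6.41 TPM under Tgfb (1.94, limma adjusted p = 0.00252). Oas1a rose from 6.06, 4.81 and 9.99 TPM to 21.6, 18.2 and 33.7 TPM (1.69, limma adjusted p = 0.00377). Irf1 rose from 26.6, 25.9 and 32.1 TPM to 41, 42.1 and 53 TPM (0.66, limma adjusted p = 0.00549). In each of these sample III of both groups was the highest, as it was for 7 of the 8 genes in either group.

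Untreated sample III stood apart most for Irf7, which read 4.13, 5.41 and 18 TPM in control samples and 25.8, 26.8 and 38.6 TPM under Tgfb. Its change was 1.85 (SE 0.493, limma adjusted p = 0.0185). The call was lost when control sample I or II or any of the 3 Tgfb samples was left out, with limma adjusted p from 0.05 to 0.0727, and it was as low as 0.00111 among the other alternatives. Bst2, at 10, 8.43 and 10.4 TPM against 10.2, 10.5 and 12.2 TPM, was not called (0.17, limma adjusted p = 0.228). Gvin1 fell from 7.35, 5.37 and 2.21 TPM to 0.426, 0 and 0.389 TPM (-2.14, limma adjusted p = 0.00346), and the sum of the Gvin loci went from 628 ± 48.3 to 27 ± 3.15 TPM (SD, n = 3 each).

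Of 75 other pathway genes tested in the Tgfb table, 52 rose and 11 fell, where 27.4% of all genes were called higher and 29.3% lower. All 6 genes of receptor signalling and all 4 of ISG15 conjugation rose, as did Ifnlr1 (1.38, limma adjusted p = 0.000201). Ifitm3 fell from 245 ± 12.4 to 32.3 ± 3.37 TPM (SD, n = 3 each), and Cgas (-1.35), Mavs (-1.03), Irf8 (-2.12) and Ptpn2 (-0.62) fell too. The leukocyte markers summed to 0.364 to 1.22 TPM in control samples and 0.724 to 1.9 TPM under Tgfb, with Adgre1 at 0 in every sample, and their part was not tested.

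**Figure D5:**
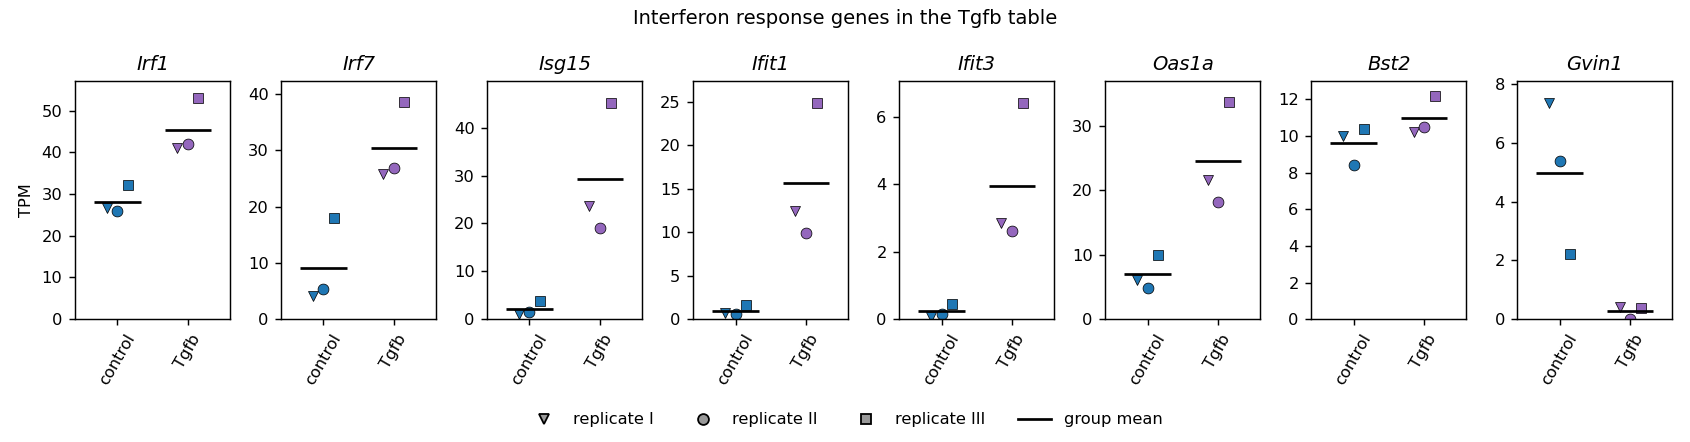
TPM of the 8 genes (y axes, linear and from 0) in the 3 untreated and 3 Tgfb-treated samples of the Tgfb table, with the replicate number as the symbol and the group mean as a bar. Irf7 in untreated sample III, at 18 TPM, lies apart from the other 2 untreated samples, and Bst2 overlaps between the groups.

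In the mesenchymal cells, with 1 sample of each kind and so no test, all 8 genes were seen in the fresh cells. Fresh against immortalised cells read 27.8 and 22.6 TPM for Irf1, 8.6 and 2.2 TPM for Irf7, and 41.8 and 6.14 TPM for Isg15. The values in the same order were 4.93 and 1.41 TPM for Ifit1, 16.9 and 2.95 TPM for Ifit3, and 1.7 and 0 TPM for Oas1a. Bst2 read 78.3 and 53.2 TPM and Gvin1 32.6 and 46.3 TPM. Gvin1 made up 45.4% and 61.5% of its family's TPM there, against at most 1.62% in the organoids of the Tgfb table. The tables were scaled separately, so levels are set side by side across them without a test.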

How the data were processed

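RNA from 28 samples was sequenced, and groups were taken from the labels (number of unmapped columns: 0). In the BMP table the authors deposited a signal, gene counts divided by a size factor per sample, as read from the values: all 180721 values at or below 20 reads (100%) were whole multiples of 1 read within 0.1 read. TPM is the unit of the values deposited for Tgfb and for mesenchymal cells, also read from the values. Trim Galore, Salmon, DESeq2 and GRCm39 are named in the submitters' processing notes, without versions or roles.

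Values were tested with limma 3.58.1 in R 4.3.3 (trend, two-sided) on log2(value + 1), with the 20 BMP samples in 1 fit and the 6 Tgfb samples in another. Genes needed a mean of at least 10 normalized counts (14746 genes) or 1 TPM (12959 genes). The p-values were adjusted by Benjamini and Hochberg's method over every gene tested, with a threshold of 0.05. edgeR 4.0.16 and DESeq2 1.42.0 on the recovered reads, other pseudocounts, filters and scalings, a replicate block and leaving out each sample were alternatives. The script was tested on simulated data. The genes, lists and tests were chosen with earlier results of these data known. Pathway genes were named from the 3 per list with the largest change past the threshold against control and from lists with 5 or fewer calls, and likeness from the 3 genes most correlated with each of the 8. Some genes are not reported here. Gvin-ps5 levels and the genes said to be picked after their values were seen are exceptions.

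Same-numbered samples deviated together from their group means for BMP3 (r from 0.281 to 0.553), BMP4 (0.19 to 0.225), BMP5 (0.158 to 0.262) and BMP7 (0.236 to 0.294) against control, for BMP4 against BMP7 and for BMP5 against BMP7, but not for every number in comparisons with BMP2 (lowest against control 0.0182) or for Tgfb (0.00405 to 0.0696). Promoter windows are from RefSeq (GRCm38.p6), a build other than that of the counts.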

Additional observations from a re-analysis of the deposited data

Results flagged for a closer look

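Among 16 groups of 4 samples checked (8 genes in the control and BMP2 groups), 1 had a sample far from the others: Gvin1 in BMP2 sample IV, at 23.5 normalized counts, where the other 3 samples were at 0. Such a check picks out about 1 group in 20 by chance where values are continuous. That rate does not hold for this group: with 3 samples equal at 0, any other value above 0 is picked out. The same sample had the lowest sum over the Gvin loci of the BMP2 group, at 175 normalized counts.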

How the results depend on the processing

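Irf7, Isg15, Ifit1, Ifit3 and Oas1a kept their direction and their call under BMP2, BMP4, BMP5 and BMP7 in all 365 alternative values. Genes called for BMP5 against control numbered 3884, between 2515 (without BMP5 sample III; 2532 without VI) and 4298 when 1 sample was left out, and 2392 with all samples numbered VI left out. For BMP3 the count of 0 became 3 with only its 2 groups fitted, 1 with DESeq2, and 0 to 1 with a sample left out. For BMP5 against BMP7 the count of 2 became 0 (pseudocount 0.1 or a mean of at least 50), 4 (pseudocount 5, no filter or edgeR), 1 (equal totals or quantile normalization), 23 (DESeq2) and 0 to 9 with a sample left out (9 without BMP5 sample III, 0 without BMP5 sample II or VI or BMP7 sample II or III). For BMP4 against BMP7, 3 to 5 of the 8 genes were called higher with a sample left out, 4 with equal totals or edgeR, and 6 with DESeq2 or without the samples numbered VI. The cause was not tested.

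With the replicate block, BMP5 against BMP7 had 6 calls, and the block changed no other call in the comparisons where the numbers pair the samples. In comparisons where they do not, it gave Bst2 a call for BMP2 against BMP4 (0.41, adjusted p = 0.014) and against BMP7 (0.40, adjusted p = 0.017).

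Sign changes were seen for differences near 0 that were not called. With equal totals these were Bst2 for BMP4 against control (-0.08) and for BMP2 against BMP7 (-0.09), and, for BMP5 against BMP7, Irf1 (0.02) and Irf7 (0.01). With quantile normalization they were Bst2 for BMP4 against BMP7 (0.27) and, for BMP5 against BMP7, Irf1 (0.03) and Irf7 (0.01). Without the samples numbered VI they were Gvin1 for BMP4 against control (-0.27), Bst2 for BMP4 against BMP7 (0.18) and Isg15 for BMP5 against BMP7 (-0.00). With DESeq2 they were Bst2 for BMP4 against BMP7 (0.03) and Irf7 for BMP5 against BMP7 (0.02), and with edgeR the latter (0.01). Leaving out 1 sample gave, for BMP3 against control, -0.01 to 0.28 for Bst2, -0.75 to 0.01 for Gvin1 and -0.05 to 0.24 for Oas1a. For BMP4 against BMP7 it gave -0.17 to 0.13 for Bst2 and -0.22 to 0.09 for Irf1. For BMP5 against BMP7 it gave -0.44 to 4.84 for Gvin1, -0.53 to 0.33 for Ifit1, -0.04 to 0.43 for Ifit3, -0.21 to 0.14 for Irf1, -0.37 to 0.26 for Irf7, -0.34 to 0.41 for Isg15 and -0.20 to 0.29 for Oas1a.

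The filter of a mean of 50 was not run for Tgfb, where a mean of 10 TPM was used instead and left 5 of the 8 genes to test, with 4 called higher. TPM keeps no depth, so the precision of low values in the Tgfb and mesenchymal tables is unknown. Gvin1 at 0 normalized counts means under 3 reads per library, counting error only, and reads of its copies cannot be assigned with certainty.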
